A study of Drosophila melanogaster with 4 samples.

Results

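Acetylation of lysine 23 of histone H3 (H3K23ac) was mapped by chromatin immunoprecipitation and sequencing (ChIP-seq) in *Drosophila melanogaster* embryos, and is described here for the sequence nearest to heterochromatin. It comprised chromosome 4, the proximal 2 Mb of the X, 2L, 3L and 3R sequences, which lie toward the centromere, and 7 heterochromatic or unplaced scaffolds. Regions were taken by position alone: all those on chromosome 4 or on the scaffolds 2LHet, 3LHet, 3RHet, XHet, YHet, U and Uextra, and all those reaching into the proximal 2 Mb of an arm. Of 35767 enriched regions in 3 deposited lists, 1774 (4.96%) met this rule. Replicate 1 contributed 483 of its 10281 regions, replicate 2 contributed 337 of 7422, and a combined list 954 of 18064.

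The study used the wild-type strain Oregon-R as embryos 14 to 16 hr old, grown in population cages and fixed with 1.8% formaldehyde. Its 4 samples were 2 H3K23ac ChIP replicates and 2 inputs of chromatin before immunoprecipitation, which carry the same replicate numbers. The chromatin came from whole embryos, so that a region seen in few cells and one weakly marked in all cells cannot be told apart. The labels do not say whether separate collections of embryos were used, and the spread between replicates may be technical. The read depth of each list was unknown. Positions are on FlyBase release 5.

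Acetylation of the histone H3 tail neutralises the charge of a lysine and is in general found at genes that are active or poised. Pericentric heterochromatin is packed with repeats, and its nucleosomes carry H3K9 methylation, which the protein HP1a binds. Chromosome 4, the dot chromosome, is unusual. Much of it carries HP1a and H3K9 methylation, laid down there mainly by the methyltransferase Eggless, yet it holds active genes. The protein POF, which is specific to this chromosome, coats these genes. Among the genes of chromosome 4 are *ci*, the transcription factor of Hedgehog signalling, the eye selector genes *ey* and *toy*, and *pan*, the transcription factor of Wingless signalling. The base of 2L carries the repeated histone genes. Gene positions of release 5 were not used here, so that no region below is assigned to a gene.

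Chromosome 4, 3 of the 4 arm ends and the scaffolds had a smaller share of bases in H3K23ac regions than the rest of the arms. The end of 3R had a slightly larger share. Regions covered 2.99% of chromosome 4 in replicate 1 and 3.06% in replicate 2. Remainders are the same 4 arms without their proximal 2 Mb, so that arm 2R is left out. Together the remainders were covered to 18.9% in replicate 1 and 13.1% in replicate 2. Chromosome 4 thus had 0.196 ± 0.0537 (SD, n = 2) of the covered share of the remainders, and the values of the replicates did not overlap between the compartments. The 7 scaffolds, 45.0 Mb in all, were covered to 0.0200% in replicate 1 and 0.0100% in replicate 2. Most of that length was Uextra (29.0 Mb, with 0 regions in each list) and U (10.0 Mb), whereas XHet (204 kb) was covered to 2.19% and 1.49%. Whether reads could be placed on the scaffolds, or equally well in the other compartments, was not tested. No test was run on these differences, since 2 values paired within replicates allow no exact two-sided sign permutation p below 0.5.

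The 4 arm ends differed widely among themselves. Replicate 1 covered 6.93% of the proximal 2 Mb of 3L and replicate 2 covered 5.21%, against 19.7% and 14.2% of the remainder of 3L. That of 2L was covered to 8.79% and 8.43%, against 18.6% and 13.7% of its remainder. These 2 ends had 0.360 ± 0.0112 and 0.543 ± 0.0999 (SD, n = 2) of the covered share of their remainders. Both ratios depended on the length taken as proximal: with 1 Mb they were 0 on 3L and 0.196 on 2L, and with 3 Mb 1.03 on 3L, the opposite direction, and 0.697 on 2L. The end of X was covered to 8.87% in replicate 1 but to 2.66% in replicate 2, against 15.5% and 8.45% of the X remainder, a ratio of 0.444 ± 0.183. The end of 3R was covered to 23.03% and 18.1%, against 21.3% and 15.1% of its remainder, a ratio of 1.14 ± 0.0777. On 3R the excess had the same sign in both replicates but was smaller than the difference between them.

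**Figure D1:**
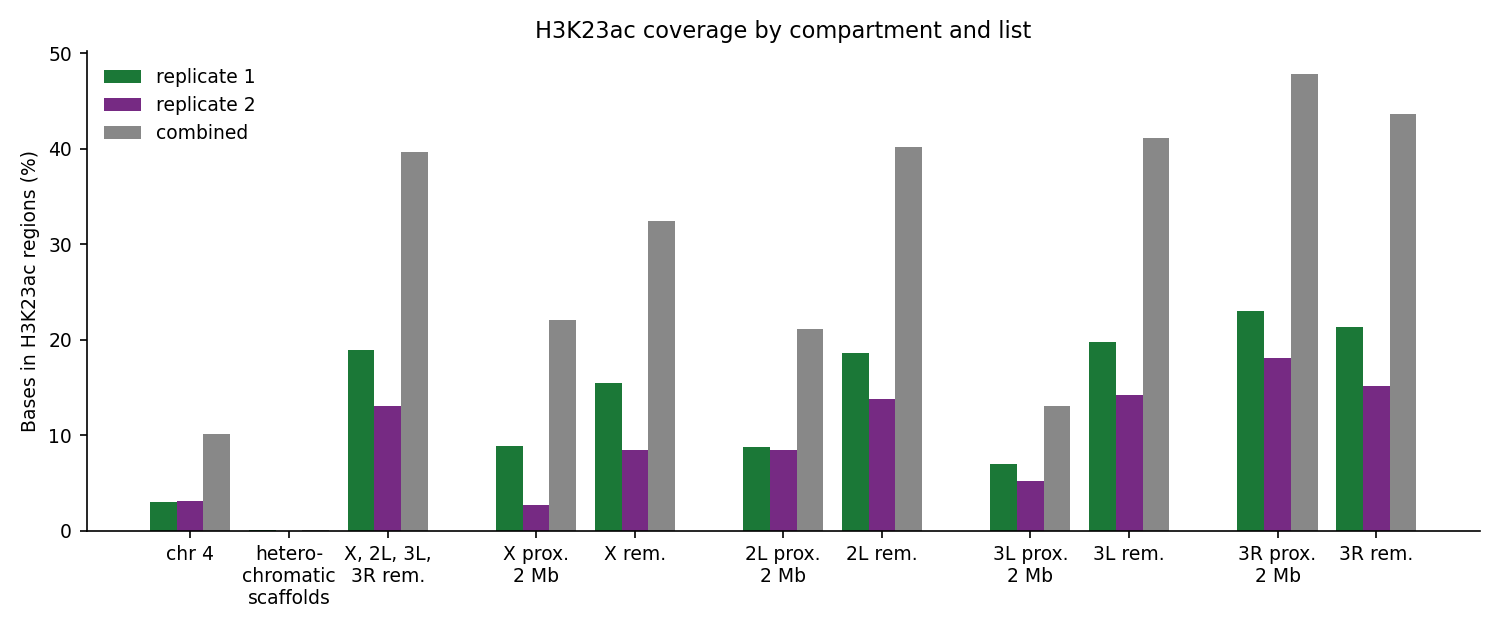
Share of bases inside H3K23ac regions (%, vertical axis) for each compartment and, to its right, the rest of the arms (rem.), with 1 bar per list. The replicates cover near 3% of chromosome 4 and at most 0.0200% of the scaffolds, and of the 4 arm ends the one of 3R alone stands above its remainder in each list.

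Set against windows of the same 2-Mb length along the same arm, the ends of 3L and 3R lay at opposite sides. The 3L end had a lower covered share than all 11 other windows, of which the lowest was at 13.1% in replicate 1 and 7.73% in replicate 2. The X end was below all 10 other X windows in replicate 2 and above 1 of them in replicate 1. On 2L the end was below all 10 others in replicate 1 and above 1 in replicate 2. The 3R end exceeded 10 of 12 other windows in replicate 1 and 11 of 12 in replicate 2, without being the highest in either.

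Within the 2 Mb the covered sequence was not spread evenly. Segment limits given here, and those on chromosome 4, follow bins of 200 or 100 kb and were set after the values were seen. On 3L the last 1.6 Mb held 1 region in each replicate and 17 in the combined list, and was covered to 0.0955% and 0.103% in the replicates. The next 0.4 Mb away from the centromere held 59 and 47 regions and was covered to 34.3% and 25.7%. Coverage went on at 60.0% and 51.9% in the 0.4 Mb beyond the 2-Mb limit, which therefore cut through a densely covered stretch. The region of replicate 1 nearest the end of 3L lay at 23251145 to 23252672, 1291 kb from the end, and that of replicate 2 at 22958721 to 22960368, 1583 kb from it. The combined list had a region at 24201356 to 24202396, 341 kb from the end, which was 1041 bp wide.

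The end of 2L held an island of covered sequence between sparse stretches. Its last 0.8 Mb had 2 regions of replicate 1 and 1 of replicate 2, with 0.340% and 0.191% of bases covered. From 0.8 to 1.4 Mb from the end there were 55 and 56 regions, covering 19.4% and 19.5%. These shares were above those of the 2L remainder, 18.6% and 13.7%. As the segment was chosen for its high values, this comparison carries no weight. Between 1.4 and 1.6 Mb coverage was 0.670% and 0.708%, with 1 region in each replicate, and from 1.6 to 2 Mb it was 13.9% and 12.2%. The nearest regions to the end lay at 22533248 to 22534618 in replicate 1 and at 22439961 to 22441490 in replicate 2, at distances of 477 and 570 kb.

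On X and 3R regions came close to the very end of the arm sequence. The nearest X region was 2154 bp wide in replicate 1, at 22411107 to 22413260, and 1394 bp wide in replicate 2, at 22411290 to 22412683. These lay 9.57 and 10.1 kb from the end and overlapped, with scores of 0.92 and 0.51. No list had a region between 0.6 and 0.8 Mb from the X end. The nearest 3R regions, at 27444 to 28755 and 28591 to 31678, lay 27.4 and 28.6 kb from the end of the sequence. The 3R stretch from 0.6 to 1 Mb was the densest of this end, with 40.8% covered in replicate 1 and 41.7% in replicate 2. Its neighbours toward the centromere (20.6% and 16.2%) and away from it, up to 2 Mb (17.4% and 9.73%), were covered less in both replicates. As this stretch too was chosen for its high values, the comparison carries no weight.

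**Figure D2:**
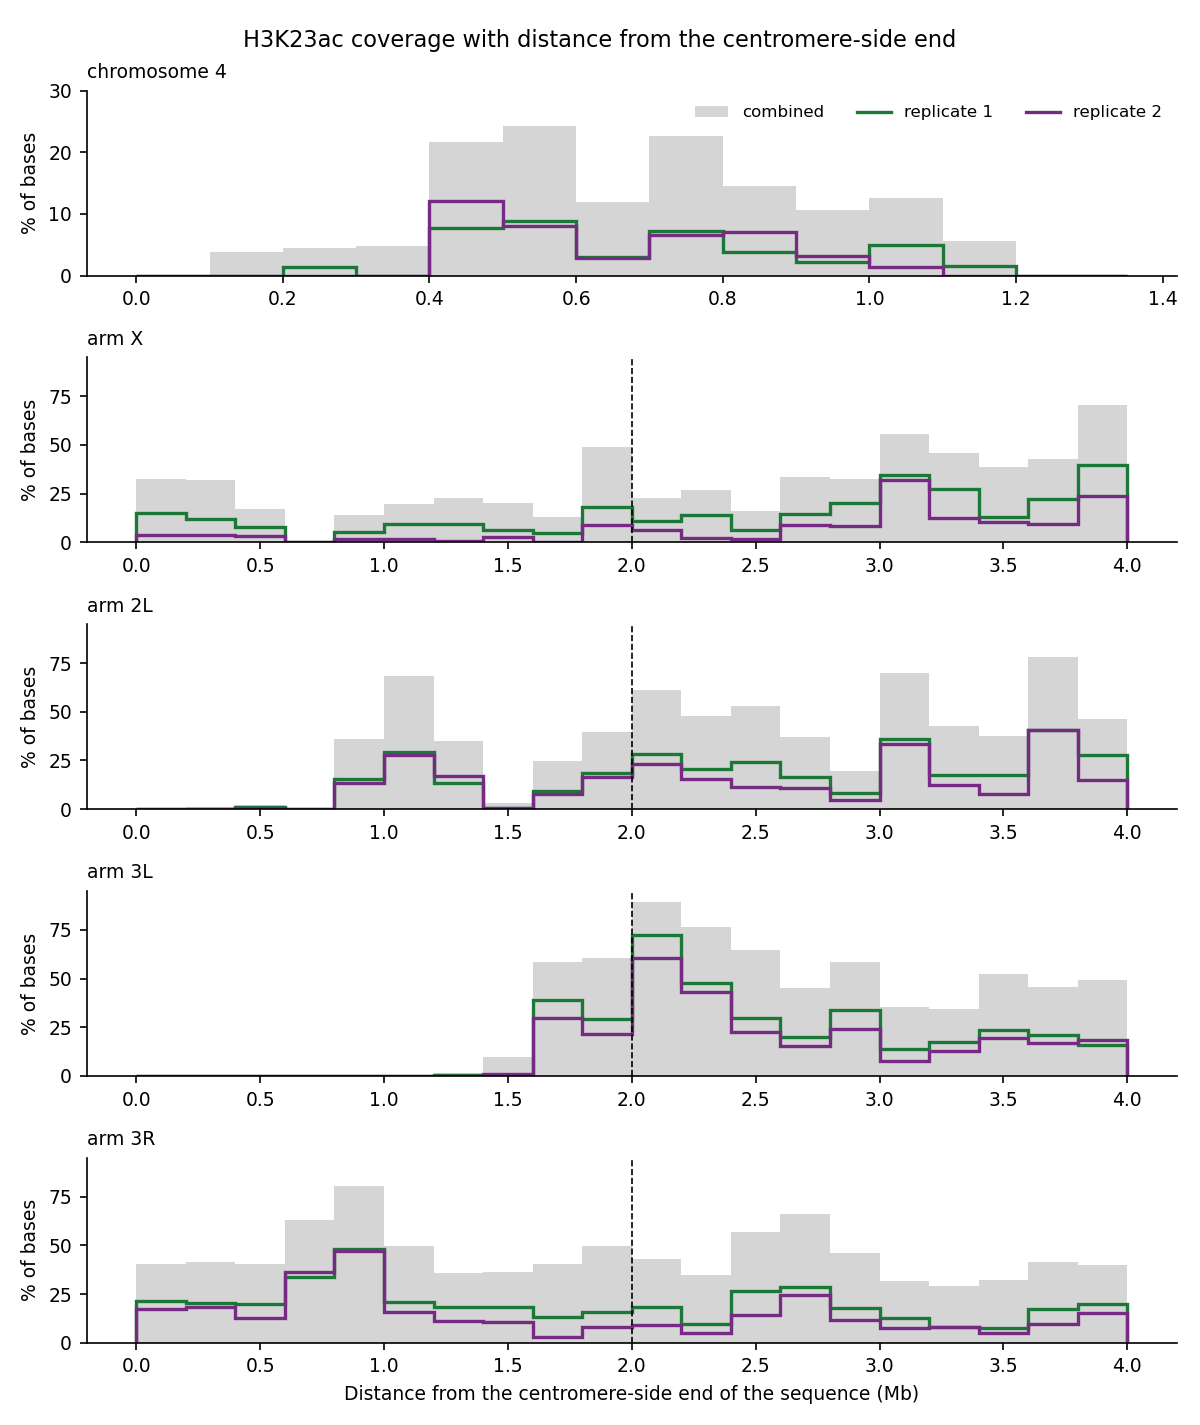
Share of bases in H3K23ac regions (%, vertical axes, with a smaller range for chromosome 4) against the distance from the centromere-side end of the sequence (Mb), in bins of 200 kb on the arms and 100 kb on chromosome 4. Lines are the replicates, grey areas the combined list, and dashed lines mark the 2-Mb limit. The 3L profile is near 0 up to 1.6 Mb, that of 2L shows an island from 0.8 to 1.4 Mb, and that of 3R starts high.

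Chromosome 4 carried its H3K23ac regions in the middle of its sequence. In the first 0.4 Mb, toward the centromere, replicate 1 had 1 region, replicate 2 had 0 and the combined list had 8. Between 0.4 and 0.9 Mb there were 16 and 20 regions, covering 6.09% and 7.34%. From 0.9 Mb to the end, 5 and 3 regions covered 1.91% and 1.02%. Even the middle stretch was covered less than the arm remainders in each replicate. The first region lay at 275881 to 277273 in replicate 1 and at 400812 to 402412 in replicate 2. All 76 combined regions fell between 166016 and 1184278, which left 166 kb at the start and 168 kb at the end of the 1.35-Mb sequence without any.

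Both replicates had nearly the same number of regions on chromosome 4, 22 and 23, although replicate 1 had more regions than replicate 2 on each arm remainder. Of these, 12 regions of replicate 1 (54.5%, 95% Wilson interval 34.7 to 73.1%) and 13 of replicate 2 (56.5%, interval 36.8 to 74.4%) shared at least 1 base with the other replicate. Over the whole lists these shares were 51.8% for replicate 1 and 72.7% for replicate 2, and both lie within the intervals. The shared bases came to 22.0 kb of 59.8 kb covered in either, so that the Jaccard index, the quotient of these sums, was 0.368, against 0.333 for the arm remainders. They formed 13 stretches with a median of 1772 bp. The longest, of 2373 bp, lay at 857656 to 860028.

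Several of the shared regions of chromosome 4 stood in small groups. A first group had regions at 410461 to 412747, 415965 to 417801 and 420611 to 424115 in replicate 1. Replicate 2 covered the same group with 4 regions, because 2 of its regions, at 420424 to 422480 and 423028 to 424862, met the last of them. A second group had 542001 to 544416 and 545761 to 547532 in replicate 1, and 541696 to 544306 and 545024 to 547557 in replicate 2. Another began at 722592 in replicate 1 and 722444 in replicate 2, and ended at 737467 and 737351. It held 4 regions in replicate 1, of which 3 were shared, and 3 in replicate 2.

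The highest-scoring combined region of chromosome 4 that met both replicates was 541734 to 544556. It scored 0.64 there, and the replicate regions in it scored 0.76 and 0.75. The score is the authors' own value for each region, on a log2 scale, and is compared within a list only. Then came 857588 to 860224, with a combined score of 0.60 and replicate scores of 0.72 and 0.71. The region 415718 to 419648 followed, with a combined score of 0.60 and replicate scores of 0.61 and 0.75. Boundaries of the second of these nearly coincided between replicates, at 857656 to 860044 and 857646 to 860028.

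Regions of chromosome 4 found in both replicates had a larger median width than those found in 1, with overlapping ranges. In replicate 1 the 12 found had a median width of 2018 bp (1435 to 3505 bp) and the 10 not found had 1408 bp (1318 to 2108 bp). In replicate 2 the median was 1842 bp for the 13 found (1331 to 3219 bp) and 1424 bp for the 10 not found (1323 to 2015 bp). The arm ends showed the same direction, with medians of 2024 bp for found regions and 1676.5 bp for the others of replicate 1. For replicate 2 found regions had a median width of 1922.5 bp and the others 1596 bp. A wide region also has more bases that can be met, and no chance level was computed by width. Found regions had a median score of 0.66 and the others 0.54 in replicate 1; in replicate 2 the medians were 0.63 for found regions and 0.57 for the others. The ranges of scores overlapped. Over the 12 matched pairs, Spearman's rho of the scores was 0.231, within the range of the arm ends, from -0.0025 on X (23 pairs) and 0.233 on 3R (99 pairs) to 0.484 on 2L (46 pairs) and 0.589 on 3L (35 pairs). Single arm remainders had 0.302 on 2L to 0.409 on 3L. These pairs share their libraries and carry no p-value.

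**Figure D3:**
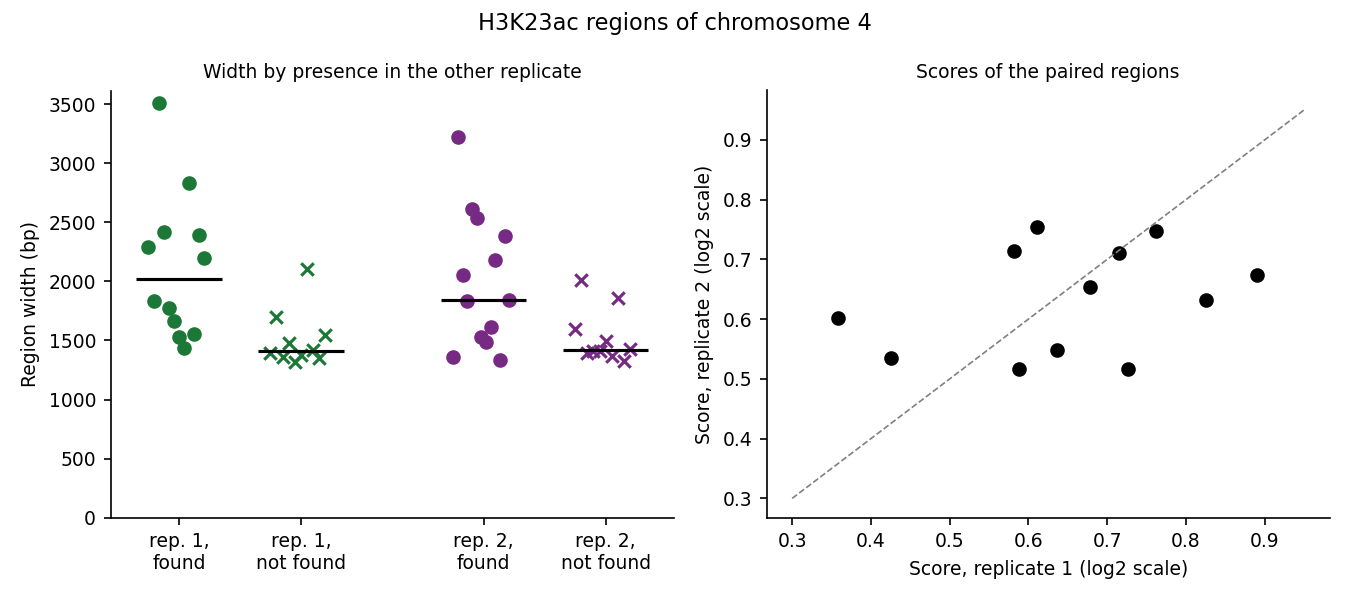
Left, width (bp) of each chromosome 4 region in the replicates, as found (circles) or not found (crosses) in the other replicate, with the median as a black line. Right, scores (log2 scale) of the 12 matched pairs, with the line of equal scores dashed; the medians of found regions, 2018 and 1842 bp, stand above those of regions not found, 1408 and 1424 bp.

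Among the arm ends, replicate agreement was lowest for regions of replicate 1 at the X end, and intervals of the other ends overlapped each other within each replicate. Together, 215 of 455 regions of replicate 1 (47.3%, 95% Wilson interval 42.7 to 51.8%) and 218 of 311 of replicate 2 (70.1%, interval 64.8 to 74.9%) at the 4 ends were found in the other replicate. At the X end this held for 23 of 99 regions of replicate 1 (23.2%, interval 16.0 to 32.5%), against 41.8% of the X remainder (39.3 to 44.4%). For replicate 2 it held for 23 of 34 (67.6%, interval 50.8 to 80.9%), against 71.2% of the X remainder. At the 2L end 48 of 85 regions of replicate 1 (56.5%, interval 45.9 to 66.5%) were found, against 52.3% of its remainder. For replicate 2 these were 49 of 79 (62.0%, interval 51.0 to 71.9%), against 72.1%. The 3L end had 36 of 60 (60.0%, interval 47.4 to 71.4%) and 37 of 48 (77.1%, interval 63.5 to 86.7%), against 52.6% and 72.8% of its remainder. The 3R end had 108 of 211 (51.2%, interval 44.5 to 57.8%) and 109 of 150 (72.7%, interval 65.0 to 79.2%), against 53.0% and 72.8% of its remainder. The Jaccard index of the X end was 0.148, against 0.269 for the X remainder, while the other ends had 0.342 (2L), 0.376 (3L) and 0.383 (3R), close to their remainders (0.339, 0.352 and 0.350). Intervals cover counting error only, and neighbouring regions are not independent.

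This difference on X went with unequal list lengths. Replicate 1 covered 3.33 times as many bases as replicate 2 at the X end, against 1.83 times on the X remainder. The same quotient was 1.04 at the 2L end, 1.33 at the 3L end, 1.27 at the 3R end and 0.980 on chromosome 4, against 1.35, 1.39 and 1.40 on the remainders of 2L, 3L and 3R. The part of this imbalance in the lower agreement was not tested. With at least 50% of a region required to be covered, 19 of 99 X-end regions of replicate 1 and 21 of 34 of replicate 2 were found, and on chromosome 4 the counts stayed at 12 and 13. Over the whole lists 42% of replicate 1 and 62.4% of replicate 2 passed that stricter rule.

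**Figure D4:**
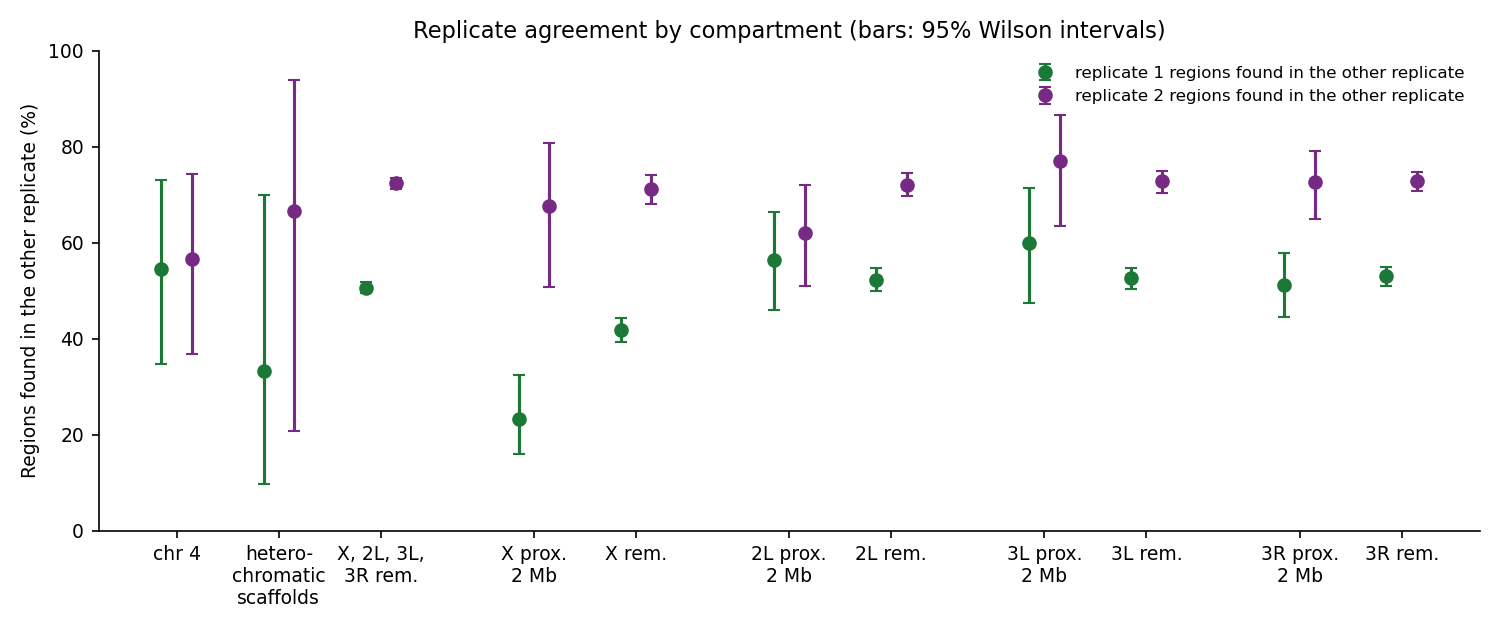
Share of regions found in the other replicate by at least 1 shared base (%, vertical axis) for each compartment and, to its right, the rest of the arms (rem.), with 95% Wilson intervals. Replicate 1 at the X end stands at 23.2%, below the X remainder at 41.8%, while chromosome 4 has 54.5% and 56.5%.

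Chromosome 4 had narrower and lower-scoring regions than the rest of the arms, and the arm ends had regions of about the same width and slightly lower score. On chromosome 4 the median width was 1610 bp in replicate 1 and 1601 bp in replicate 2, against 1824 and 1772 bp on the remainders, a ratio of 0.893 ± 0.0147 (SD, n = 2). No chromosome 4 region of the replicates reached 5 kb, and 1 combined region did. At the 4 arm ends together the width ratio was 0.990 ± 0.0159, within its spread of 1. For single ends against the same remainders it was 0.888 on X, close to chromosome 4, 0.966 on 2L, 1.04 on 3L and 1.04 on 3R. Within the replicate lists the widest regions of the ends were on 2L, at 10538 bp, and on 3R, at 8315 bp, both in replicate 2. In the combined list the 2L end reached 24129 bp and the 3R end 19203 bp. That 2L region, 20996892 to 21021020, crossed the 2-Mb limit and lay partly in the 2L remainder. The X end had narrow regions, with medians of 1686 and 1509.5 bp, against 1822 and 1708 bp on the X remainder.

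Median scores on chromosome 4 were 0.60 in replicate 1 and 0.59 in replicate 2, against 0.67 and 0.66 on the remainders. The difference was -0.071 ± 0.0031 on the log2 scale (SD, n = 2). It was -0.054 when X, whose regions score higher, was left out of the remainders, and -0.032 among regions found in the other replicate. Against the same pooled remainders the mean difference was 0.080 at the X end, -0.053 at 2L, -0.035 at 3L and -0.031 at 3R. The 2L end, with medians of 0.61 in replicate 1 and 0.62 in replicate 2, thus came near chromosome 4. Each arm end had a slightly lower median score than the remainder of its own arm in both replicates, with differences from -0.0061 on X in replicate 2 to -0.044 on 2L in replicate 1. At the X end the medians were 0.76 and 0.74, against 0.78 and 0.74 on the X remainder. In the combined list the 3L end had a higher median than its remainder, 0.45 against 0.44.

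At each arm end the 3 highest-scoring combined regions that overlapped both replicates are named, and not all of them scored high in each replicate. The highest-scoring combined region of this kind at the 3L end was 22790214 to 22795302, with a combined score of 0.80 and replicate scores of 1.01 and 0.81. Behind it were 22720952 to 22725208, with a combined score of 0.76, and 22761442 to 22766438, with 0.66. At the 3R end the region 1100874 to 1106392 had a combined score of 0.73. It held 2 regions of replicate 1, the higher at 1.01, and 1 of replicate 2, at 0.88. It was followed by 119226 to 122360 and 825360 to 828942, with combined scores of 0.70 and 0.69. The latter scored 0.86 in replicate 1 but 0.638 in replicate 2, where the median of the 3R end was 0.639.

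At the 2L end the first such region was 21832696 to 21838906, with a combined score of 0.68 and replicate scores of 0.85 and 0.81. It preceded 22019322 to 22024406 and 21030730 to 21037602, with combined scores of 0.66 and 0.64. The first 2 of these 2L regions lay in the island described above. At the X end 21488928 to 21492598 had a combined score of 0.82 and replicate scores of 0.90 and 0.85. The others there were 22110646 to 22114004, with 0.70, and 22210662 to 22214152, with 0.66. The last of these scored 0.85 in replicate 1 but 0.72 in replicate 2, where the median of the X end was 0.74. The longest stretches covered in both replicates were 5736 bp on 3R (704029 to 709764), 4701 bp on 2L (21841597 to 21846297), 4020 bp on 3L (22916451 to 22920470) and 1751 bp on X (20616665 to 20618415).

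On the 7 scaffolds together replicate 1 had 6 regions, replicate 2 had 3 and the combined list had 30. Their median score was 0.68 in replicate 1 and 0.70 in replicate 2, a level set by few regions. XHet, a scaffold of 204 kb, had the highest covered share, at 2.19% and 1.49% in the replicates and 7.88% for combined regions. Its regions in replicate 1 were 8667 to 10290, 27124 to 28633 and 68189 to 69519, with scores of 0.65, 0.70 and 0.75. In replicate 2 they were 8760 to 10188 and 29250 to 30871, with scores of 0.53 and 0.70. The first of them overlapped between the replicates, over 1429 bp.

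On the unplaced scaffold U, replicate 1 had 5571267 to 5572576 and 5631261 to 5633092, with scores of 1.40 and 0.45. Replicate 2 had 5571588 to 5573051, with a score of 1.09. The high-scoring region was thus found in both, with 989 bp shared, and had a combined score of 0.92 at 5570992 to 5573462. The remaining scaffold region of a replicate list was 2535794 to 2537203 on 3LHet in replicate 1, with a score of 0.42. YHet and Uextra had 0 regions in each list, while 2LHet and 3RHet had 2 and 4 in the combined list alone. Whether reads could be placed on these sequences was not tested, and where no region is listed, none was called.

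On chromosome 4, at the X end and on the scaffolds, a larger share of the combined regions was absent from both replicates than on the remainders. Of 76 combined regions of chromosome 4, 11 (14.5%, 95% Wilson interval 8.28 to 24.1%) overlapped both replicates and 46 (60.5%, interval 49.3 to 70.8%) overlapped neither. On the arm remainders 23.4% overlapped both and 44.8% neither, and over the whole list 24.4% and 43.9%. At the X end 128 of 227 (56.4%, interval 49.9 to 62.7%) overlapped neither, against 46.1% of the X remainder (44.2 to 47.9%). At the 3L end 27 of 86 (31.4%, interval 22.6 to 41.8%) overlapped neither, against 45.3% of its remainder (43.7 to 47.0%), and 33 (38.4%) overlapped both, against 24.0%. The 2L and 3R ends had 41.8% and 44.7% in neither, against 45.1% and 43.5% of their remainders, within counting error. Of the 30 scaffold regions 24 (80.0%, interval 62.7 to 90.5%) overlapped neither. The lists differed in their smallest width on the remainders, 1301 bp in each replicate and 1001 bp in the combined list. Combined regions in neither replicate had median widths of 1211 bp on chromosome 4, 1267 bp at the X end and 1160 bp on the scaffolds. On the remainders this median was 1315 bp, and the part of width in these shares was not tested.

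**Figure D5:**
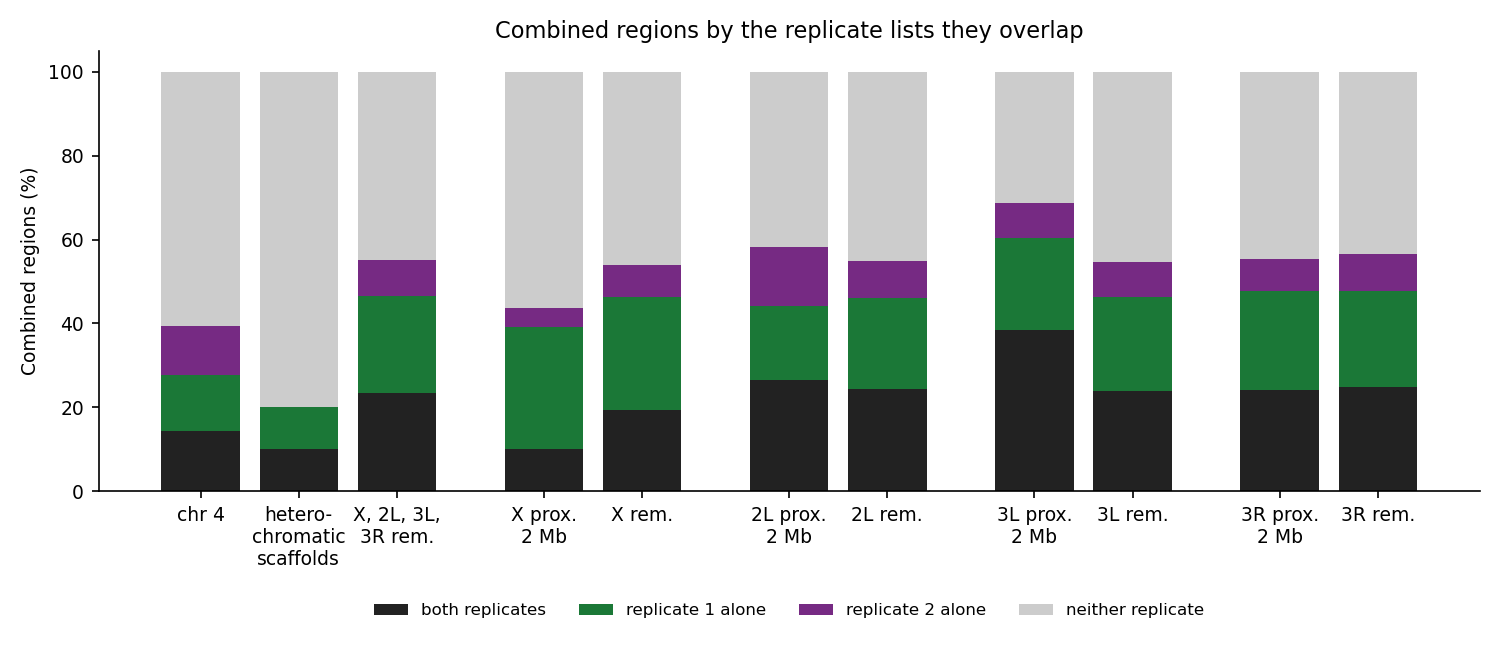
Combined regions (%, vertical axis) split by whether they overlap a region of both replicates, of replicate 1 alone, of replicate 2 alone or of neither, for each compartment and, to its right, the rest of the arms (rem.). The share in neither is 60.5% on chromosome 4, 80.0% on the scaffolds and 31.4% at the 3L end, against 44.8% on all remainders together.

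Combined scores above 1 in these compartments belonged to regions that overlapped neither replicate, as did most such regions on the remainders. A score above 1, a limit set after the values were seen, was reached by 12 of the 954 combined regions (1.26%), against 22 of 13859 on the remainders (0.159%) and 0.205% of the whole list. They were 6 of 30 on the scaffolds, 3 at the X end and 3 at the 3R end, and all 12 overlapped neither replicate, against 20 of the 22 on the remainders. The 6 on the scaffolds were 1001 to 1139 bp wide, those at the 3R end 1009 to 1097 bp and those at the X end 1041 to 1783 bp, while 1001 bp was the smallest width in the combined list. No replicate region in these compartments or on the remainders was narrower than 1301 bp. Regions as narrow as those of the scaffolds and the 3R end were thus absent from the replicate lists. A wider replicate region could still have shared bases with them, and the part of width here was not tested. The top score was 2.48 at 2381726 to 2382726 on 3LHet, followed by 2.40 at 197732 to 198732 on 2LHet. At 3R 1849130 to 1850186 the score was 1.96. On chromosome 4 the top combined region, 860262 to 861556 with 0.75, was also in neither replicate. It was 1295 bp wide, likewise narrower than any of these replicate regions.

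The 2-Mb limit had a region close to it on either side on most arms. In replicate 1 the last region inside the limit had a score of 1.26 on X, 0.57 on 2L, 0.69 on 3L and 0.90 on 3R. The first outside it had 0.67 on X, 0.67 on 2L, 0.62 on 3L and 0.48 on 3R. In replicate 2 the scores inside were 0.92 on X, 0.75 on 2L, 0.76 on 3L and 0.64 on 3R, against 0.76, 0.66, 0.79 and 0.60 outside, so that the order turned on 2L and 3L.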

How the data were processed

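The authors deposited 3 lists of enriched regions, 1 for each ChIP replicate and 1 combined, with 1 score per region. Per the file headers the build is FlyBase release 5, and sequence lengths were read there. Per the submitters' processing notes a tool was Bowtie 0.12.7, with no step named. Not given in the sources used here are the region caller, its threshold, the definition of the score and how lists were combined. The deposited score was read as log2 from its values: when the score of 1 chosen region was subtracted, 2 to that power equalled a quotient of integers no larger than 20000 (tolerance 1e-12, relative) for 99.7 to 99.97% of regions. Natural and decimal logarithms gave at most 1.86%.

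Covered shares are clipped at compartment limits, and region counts follow the rule of membership. Regions were paired one to one by largest overlap. Means ± SD are over the 2 replicates. The compartments, lists and alternatives were chosen with earlier results of these data known. The named regions are the 3 highest-scoring combined regions that overlap both replicates, the longest shared stretch and the regions nearest the arm end in each compartment, and all scaffold regions of a replicate. Others were chosen after their values were seen. Interval functions were tested on simulated data, with 50 of 50 runs equal to base-by-base counting. The alternatives were other proximal lengths, regions above the median score, merging, at least 50% coverage, the combined list, each replicate alone and, added after seeing the data, X left out. Arm 2R and its scaffold entered only the whole-list shares. The input libraries were not analysed here, and 0 columns were left unused for lack of a sample. Software was matplotlib 3.10.9, pandas 2.3.3, scipy 1.17.1 and numpy 2.4.6 under Python 3.11.15.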

Additional observations from a re-analysis of the deposited data

Results flagged for a closer look

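At a proximal length of 2 Mb the end of 3R differed in direction from the other arm ends. Its covered share was 1.14 times that of its remainder on average, above 1 in both replicates, whereas the ratio was 0.444 on X, 0.543 on 2L and 0.360 on 3L, below 1 in both replicates. With 3 Mb the 3L ratio was 1.03 and the 3R ratio 1.06, so that these arms no longer differed in direction. The difference between the arms was not tested.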

How the results depend on the processing

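Of 36 alternative values other than those leaving out a replicate, 14 stayed within the replicate SD, 21 moved beyond it and 1 reversed. For shares found in the other replicate this SD lay between the directions of a single comparison, 1.40 points on chromosome 4 and 16.2 points at the arm ends. The same shift can thus count as moved on chromosome 4 and as within the SD at the arm ends. The reversal was the 3L coverage ratio, 1.03 with a proximal part of 3 Mb, which takes in the dense stretch beyond 2 Mb. With 3 Mb the ratio was 0.697 on 2L and 1.06 on 3R. With 1 Mb it was 0.196 on 2L, 0 on 3L, where no replicate region remained, and 1.56 on 3R. With only regions scoring above the median of their list it was 0.130 on chromosome 4, 0.433 on 2L, 0.311 on 3L and 1.05 on 3R. In the combined list it was 0.255 on chromosome 4, 0.680 on X, 0.317 on 3L and 0.00237 on the scaffolds. The share of chromosome 4 regions found in the other replicate, 55.5% on average, was 52.5% after merging regions under 1000 bp apart and 43.8% among regions above the median score. At the arm ends together this share was 58.7% on average, 60.7% after merging and 44.7% among regions above the median score. The chromosome 4 score difference was -0.055 in the combined list, -0.032 among regions found in the other replicate and -0.054 with X left out, and that of the arm ends -0.0052 in the combined list. The chromosome 4 width ratio was 0.842 after merging and 0.802 in the combined list. The cause of these shifts was not tested. With each replicate alone, coverage ratios ranged from 0.158 to 0.234 on chromosome 4, 0.315 to 0.574 on X, 0.472 to 0.614 on 2L, 0.352 to 0.368 on 3L, 1.08 to 1.19 on 3R and 0.000768 to 0.00106 on the scaffolds. Score differences ranged from -0.073 to -0.069 on chromosome 4 and from -0.021 to -0.010 at the arm ends, and width ratios from 0.883 to 0.903 and from 0.979 to 1.002. By construction, a single replicate of 2 lies within the SD. No paired analysis was possible because the input samples, which share replicate numbers with the ChIP samples, have no lists here. Ratios and differences between compartments were formed within each replicate. Depth is unknown, so that its part in the list lengths could not be measured.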

Other observations

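Long stretches without a region in any of the 3 lists lay on chromosome 4 and at each arm end except that of 3R. The scaffolds and the arm remainders were not searched for such stretches. At the 3L end the longest ran from 23281675 to 24201355 (920 kb). The X end had 1 from 21500555 to 21850143 (349.6 kb), followed by a gap of 56.1 kb. The 2L end had 4 of comparable length, from 173 to 223 kb, of which the longest ran from 22211057 to 22433997. On chromosome 4 the longest inside the occupied part ran from 304529 to 396531 (92.0 kb). The longest at the 3R end, from 1562107 to 1587793, was 25.7 kb. Read placement in these stretches was not examined.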
